A study of Mus musculus with 12 samples.

Results

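Fos, Fosb, Junb, Egr1, Egr2, Egr4, Npas4, Nr4a1, Nr4a2 and Nr4a3 encode transcription factors that neurons switch on when they are active. These 10 genes were taken by symbol from the 23329 genes of the deposited files, and all 10 passed the filter on low counts. Polyadenylated RNA was sequenced from the hippocampus of adult C57BL/6 mice that lack NONO (knockout, KO) or are wild type (WT). There were 3 libraries each of KO CT10, WT CT10, KO CT22 and WT CT22, 12 in all, and CT10 and CT22 are labels that the sources used here do not spell out. No treatment or stimulus is named for any group. The sources used here give neither the knockout allele nor sex or exact age. The labels do not tie libraries to animals, so p-values here rest on the variation between libraries, and that variation may be technical.

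Immediate early genes of this kind are silent or low in resting neurons and are transcribed within minutes of synaptic input, without the need for new protein. Calcium and kinase signals reach their promoters through CREB, the serum response factor SRF with its partners, and MEF2 factors, and the encoded proteins then act on later genes of synapses and memory. FOS, FOSB and JUNB are subunits of the dimer AP-1. EGR1, EGR2 and EGR4 are zinc finger proteins, NPAS4 is a neuronal bHLH-PAS factor, and the NR4A proteins are nuclear receptors that act without a known natural hormone. NONO is a nuclear protein that binds RNA and DNA, and it has been described as a partner of the CREB coactivators of the CRTC family.

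The promoters are shown first because CREB and SRF act there. Every line gives the 250 bases before a transcription start, 5′ to 3′ on the gene's strand, from RefSeq (build GRCm38.p6). Capitals mark the core of the cAMP response element (CRE), the letters TGACG on either strand, and in Egr2 also the CArG box, the SRF motif. The windows are chr12:85473640-85473889 on the plus strand for Fos, chr7:19310046-19310295 on the minus strand for Fosb, chr10:67537619-67537868 on the plus strand for Egr2, chr19:4989972-4990221 on the minus strand for Npas4 and chr15:101266596-101266845 on the plus strand for Nr4a1. These 5 were picked to show 1 promoter of each family with its CRE cores, and a contrast within AP-1.
Fos: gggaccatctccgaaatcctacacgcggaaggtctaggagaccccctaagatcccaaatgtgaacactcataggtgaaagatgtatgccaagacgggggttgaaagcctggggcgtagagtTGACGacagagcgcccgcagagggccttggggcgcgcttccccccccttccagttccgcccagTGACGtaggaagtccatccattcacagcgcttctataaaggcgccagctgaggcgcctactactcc
Fosb: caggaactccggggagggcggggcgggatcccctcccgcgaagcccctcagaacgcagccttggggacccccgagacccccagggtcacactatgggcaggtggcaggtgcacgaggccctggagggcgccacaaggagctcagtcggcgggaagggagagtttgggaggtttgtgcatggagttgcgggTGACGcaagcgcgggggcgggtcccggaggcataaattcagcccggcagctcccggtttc
Egr2: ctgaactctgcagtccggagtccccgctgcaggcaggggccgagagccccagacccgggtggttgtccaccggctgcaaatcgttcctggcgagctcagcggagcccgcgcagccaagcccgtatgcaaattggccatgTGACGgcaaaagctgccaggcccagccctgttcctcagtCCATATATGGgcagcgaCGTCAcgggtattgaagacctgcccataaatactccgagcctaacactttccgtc
Npas4: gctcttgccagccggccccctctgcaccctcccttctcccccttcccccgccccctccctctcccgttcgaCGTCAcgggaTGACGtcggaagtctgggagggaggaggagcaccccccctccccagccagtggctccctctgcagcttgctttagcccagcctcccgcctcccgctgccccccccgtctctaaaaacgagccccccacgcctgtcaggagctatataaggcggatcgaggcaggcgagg
Nr4a1: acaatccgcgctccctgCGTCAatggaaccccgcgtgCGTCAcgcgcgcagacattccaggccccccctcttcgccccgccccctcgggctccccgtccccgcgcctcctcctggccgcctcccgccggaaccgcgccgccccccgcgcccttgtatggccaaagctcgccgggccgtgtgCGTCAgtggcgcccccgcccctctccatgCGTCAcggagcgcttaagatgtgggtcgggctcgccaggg

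Windows from 250 bases before to 50 after the start were searched on both strands for 9 of the 10 genes, Egr1 being not analysed here in this respect. All 9 held the CRE core TGACG, against 20.8% of 32851 windows of the same length and 29.4% of the 12942 windows of genes tested. Nr4a1, Nr4a2 and Nr4a3 held 4 cores each, Fos, Egr2, Egr4 and Npas4 held 2, and Fosb and Junb held 1. In Fos the cores began 129 and 66 bases before the start, and in Fosb the single one began 60 bases before it. The full element TGACGTCA was in 0 of 9 windows, against 1.79% of all windows. The CArG box was in 1 of 9, Egr2, where it began 72 bases before the start, against 1.63% of all windows. The EGR site GCGTGGGCG (0.612% of all windows), the NR4A site AAAGGTCA (1.51%) and the AP-1 site TGACTCA (5.2%) were each in 0 of 9. The letters TATAAA were in 3 of 9, against 13.6%. For 6 of the 9 genes the start site used was the start of a deposited transcript, and the exceptions were Fos, Egr4 and Nr4a3. A match of letters is a description and not a measured binding site.

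The shallowest library, KO CT22 replicate 2, held 4435606 counts and the deepest, WT CT22 replicate 3, held 10911046. Levels are given as CPM, the counts of a gene at a common library size after TMM scaling, whose factors were 0.979 to 1.021. Nono itself stood at 0 to 0.672 CPM in the KO libraries and at 150 to 169 CPM in the WT libraries, so no library went against its genotype label. The 10 hippocampal markers were above 0 in all 12 libraries, with a summed level of 1162 to 1489 CPM. Markers of neighbouring tissue varied more: the 11 neocortex markers summed to 91.3 to 208 CPM in KO CT10, 72.9 to 97.9 CPM in WT CT10, 123 to 201 CPM in KO CT22 and 80.6 to 215 CPM in WT CT22. The 12 choroid plexus markers summed to 93.7 to 3845 CPM over all libraries. A clock score, the mean log2 CPM of daytime clock genes minus that of night genes, set 2 KO libraries with the other CT label. KO CT10 replicate 3 scored 0.35 and KO CT22 replicate 1 scored 1.43, whereas the other CT10 libraries scored 1.27 to 1.53 and the other CT22 libraries 0.36 to 0.77. Values without these 2 libraries are given beside the comparisons they touch.

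Per length of transcript, the genes fell into a wide order. Egr1 was highest at 132 ± 28.5 TPM (counts scaled by transcript length and library size; mean ± SD over the 12 libraries, n = 12), and Egr2 lowest at 3.7 ± 1.9 TPM. Between them stood Junb (93.2 ± 17.3 TPM), Nr4a1 (83.8 ± 21.9 TPM), Nr4a2 (45.6 ± 17.5 TPM), Nr4a3 (43.9 ± 8.62 TPM), Egr4 (31.8 ± 7.97 TPM), Fos (24.5 ± 8.21 TPM), Npas4 (11.8 ± 3.8 TPM) and Fosb (6.04 ± 2.89 TPM). Nr4a2 exceeded Nr4a3 in 6 of 12 libraries, and Junb exceeded Nr4a1 in 9 of 12, so the places of these neighbours are not settled by the spread. Each other neighbouring pair kept its order in 11 or 12 of 12 libraries. Egr2, which rested on 12 to 74 counts per library, and Fosb, on 31 to 118, have the largest counting error.

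**Figure D1:**
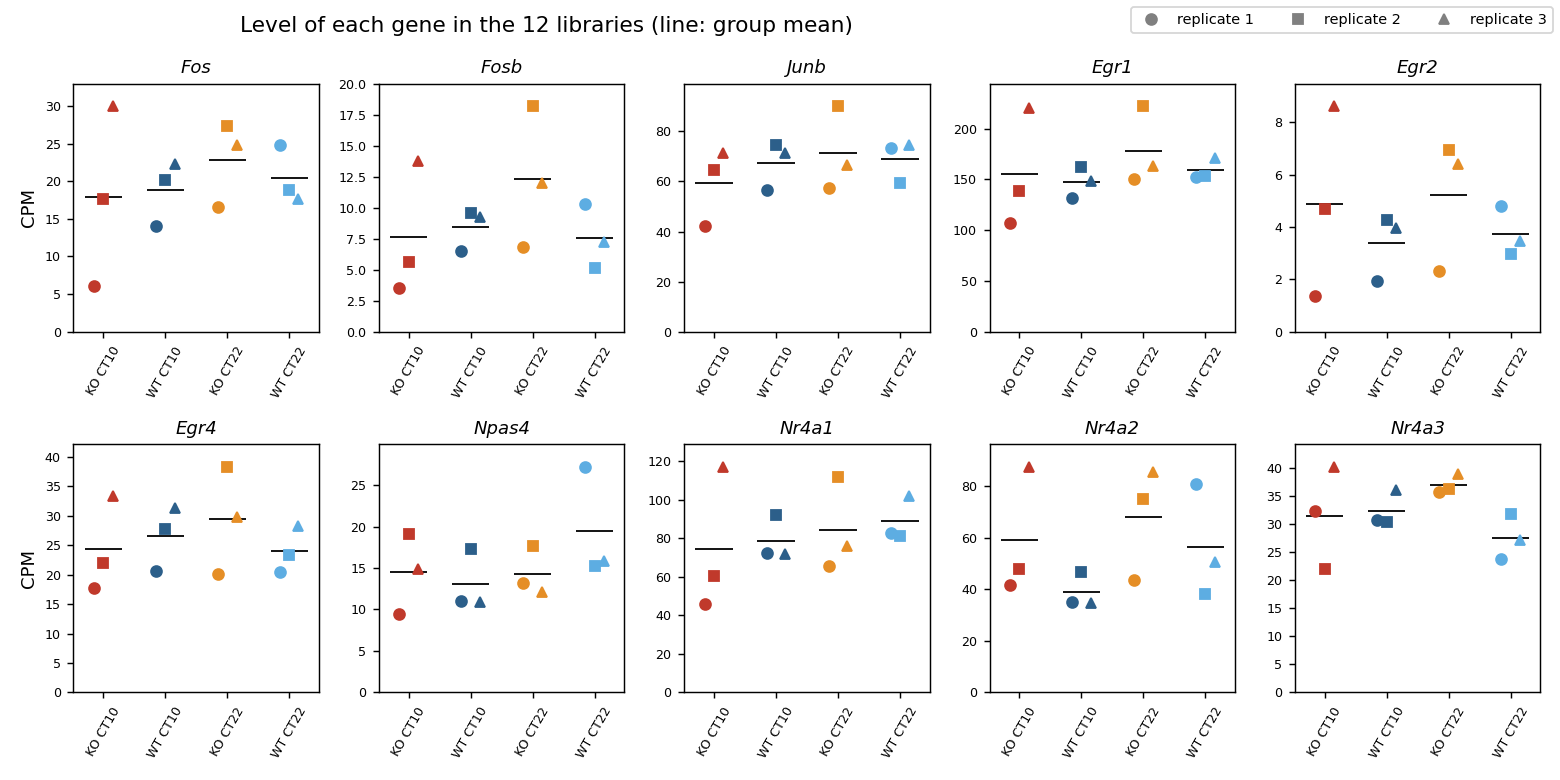
Level of each of the 10 genes in CPM (y axis, from 0) in the 12 libraries, by group, with replicate 1 as a circle, replicate 2 as a square and replicate 3 as a triangle, and a line at the group mean. KO CT10 replicate 1 lies lowest of its group for 9 genes and KO CT10 replicate 3 highest for 9, while the groups overlap for every gene except Nr4a3 at CT22.

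Of the AP-1 subunits, Fos varied most inside KO CT10. Its level was 6.12, 17.7 and 30.0 CPM in KO CT10 replicates 1 to 3, against 14.1, 20.2 and 22.3 CPM in WT CT10. At CT22 it was 16.6, 27.3 and 24.8 CPM in KO, against 24.9, 18.8 and 17.7 CPM in WT. The lowest and highest Fos values of all 12 libraries were thus both in KO CT10, a 4.89-fold range, and the WT values lay between them.

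Fosb, whose transcript also yields the long-lived truncated protein ΔFOSB by splicing, showed the same order of KO libraries at CT10. It stood at 3.51, 5.6 and 13.8 CPM in KO CT10, against 6.52, 9.58 and 9.25 CPM in WT CT10. At CT22 the values were 6.81, 18.2 and 12 CPM in KO and 10.3, 5.16 and 7.24 CPM in WT. Here the 2 highest values were in KO and the lowest in WT, and the groups overlapped. Junb, the JUN-type partner, had 42.4 to 71.2 CPM in KO CT10 against 56.5 to 74.4 CPM in WT CT10, and 57.3 to 90.1 CPM in KO CT22 against 59.3 to 74.4 CPM in WT CT22.

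Egr1, the most abundant of the 10 and a standard marker of active neurons, stood at 107, 138 and 220 CPM in KO CT10, against 132, 162 and 148 CPM in WT CT10. At CT22 the values were 150, 222 and 163 CPM in KO and 152, 153 and 171 CPM in WT. The WT libraries of both CT labels stayed within 132 to 171 CPM, while KO libraries lay below, within and above that range. Egr2, known for its part in peripheral myelin and in hindbrain patterning, had 1.36, 4.69 and 8.62 CPM in KO CT10 against 1.92, 4.27 and 3.97 CPM in WT CT10. In KO CT22 it had 2.3, 6.95 and 6.4 CPM, against 4.8, 2.96 and 3.48 CPM in WT CT22. The KO groups had the higher mean at both labels and also the lowest single library. Egr4 ranged from 17.8 to 33.3 CPM in KO CT10 against 20.6 to 31.4 CPM in WT CT10, and from 20.1 to 38.3 CPM in KO CT22 against 20.4 to 28.3 CPM in WT CT22.

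Npas4, whose protein shapes inhibitory synapses after activity, followed the other genes less evenly. Across the 12 libraries its log2 CPM had an r of 0.61 with Junb, 0.55 with Fos and 0.52 with Egr2, but 0.10 with Egr4. It stood at 9.41, 19.1 and 14.9 CPM in KO CT10, against 11, 17.3 and 10.9 CPM in WT CT10. At CT22 its level was 13.2, 17.7 and 12.1 CPM in KO and 27.2, 15.3 and 15.8 CPM in WT. Its highest value of all 12 was in WT CT22 replicate 1, and the means at CT22 were 14.3 ± 2.97 CPM in KO and 19.4 ± 6.76 CPM in WT (SD, n = 3 each).

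Among the nuclear receptors, Nr4a1 (NUR77) stood at 45.9, 60.6 and 117 CPM in KO CT10, against 72.1, 92.1 and 71.7 CPM in WT CT10. At CT22 it was 65.4, 112 and 76.1 CPM in KO and 82.8, 81.4 and 102 CPM in WT. KO CT10 thus held both the lowest and the highest library of the 12.

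Nr4a2 (NURR1), also needed by dopamine neurons, stood at 41.7, 47.9 and 87.5 CPM in KO CT10, against 35, 46.9 and 34.5 CPM in WT CT10. At CT22 the values were 43.7, 75.1 and 85.5 CPM in KO and 80.8, 38.2 and 50.5 CPM in WT. In 4 libraries, KO CT10 replicate 3, KO CT22 replicates 2 and 3 and WT CT22 replicate 1, Nr4a2 was at 75.1 to 87.5 CPM, and in the other 8 at 34.5 to 50.5 CPM. Those 4 libraries were also the highest in the summed neocortex markers, at 208, 201, 167 and 215 CPM. The other 8 had 72.9 to 123 CPM. Tshz2, 1 of these markers, ranged from 20.7 to 125 CPM over the 12 libraries, so much of the sum's range may rest on it. Ctgf ranged from 6.26 to 27.1 CPM, Rorb from 10.4 to 15.7 CPM and Scnn1a from 7.28 to 12.8 CPM. The changes of Nr4a2 with a neocortex score in the fit are given for KO against WT and for CT22 against CT10 in WT. The counts of Nr4a2 are the sum of 2 deposited transcripts (chr2:57107226-57124003 and chr2:57107226-57115038, mm10, minus strand) that differ in the first exon. The one with the farther start took 55.4%, 63.3% and 35.9% of the gene's counts in KO CT10, against 58.9%, 63.2% and 46.5% in WT CT10. Its share was 71.5%, 30.6% and 27.2% in KO CT22 and 53.2%, 38.8% and 62.5% in WT CT22. The lowest shares were thus in the 3 KO libraries with the most Nr4a2, although the division between forms was estimated from reads that are mostly common to both.

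Nr4a3 (NOR1) was the steadiest of the 10. It stood at 32.4, 22 and 40.2 CPM in KO CT10, against 30.7, 30.4 and 36.1 CPM in WT CT10. At CT22 all 3 KO libraries, at 35.7, 36.3 and 39.0 CPM, lay above all 3 WT libraries, at 23.7, 31.8 and 27.1 CPM.

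KO was first set against WT with both CT labels averaged. With edgeR's quasi-likelihood test and Benjamini-Hochberg adjustment over 14131 genes, 0 of 10 passed the threshold of 0.05, where 0.0212% of all genes tested did. Without adjustment 0 of 10 had p under 0.05, against 6.35% of all genes, and DESeq2 called 0 of 10 and 0.149% of its genes. The log2 change of KO over WT was above 0 in 7 genes and below 0 in 3, with a median of 0.09 (range −0.17 to 0.47) beside a median of 0.01 and a share above 0 of 51.8% over all genes. Nr4a2 averaged 63.6 ± 21.5 CPM in KO and 47.7 ± 17.5 CPM in WT (SD, n = 6 each), with a log2 change of 0.43 (SE 0.27, 95% interval −0.17 to 1.03, edgeR adjusted p = 0.819). With the neocortex score, the mean centred log2 CPM of those markers, as a covariate the log2 change of Nr4a2 was 0.02. For Egr2 the means were 5.06 ± 2.81 CPM in KO and 3.57 ± 1.03 CPM in WT, and the log2 change was 0.47 with an interval of −0.43 to 1.37, against −0.09 with the neocortex score. The 3 narrowest of the 10 intervals were those of Nr4a3, with a log2 change of 0.20 (−0.06 to 0.46), Junb, with −0.08 (−0.39 to 0.23), and Egr1, with 0.12 (−0.25 to 0.48). Changes within these bounds could not be told from 0 with these libraries. In the authors' deposited table of KO over WT, 0 of the 10 genes passed an adjusted p of 0.05, where 0.186% of its 15093 genes did. The smallest unadjusted p among them in that table was 0.05751, for Nr4a2 at a log2 ratio of 0.4033. With the neocortex score 8 of the 10 log2 changes were below 0 (median −0.16), and with the 2 KO libraries of unfitting clock score left out 5 were above and 5 below (median 0.00). Leaving out 1 library at a time, the median ran from −0.11 without KO CT10 replicate 3 to 0.20 without KO CT10 replicate 1.

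At CT10 alone the KO and WT levels overlapped for all 10 genes, whereas 10.3% of all genes had groups that did not overlap. None of the 10 was called by edgeR (0.00708% of all genes were) or by DESeq2 (0.0164%), and 0 had an unadjusted p under 0.05 (3.09% of all genes). The log2 change of KO over WT was above 0 in 4 genes (51.5% of all genes) and below 0 in 6, with a median of −0.05 (range −0.19 to 0.60). Nr4a2 had the largest at 0.60 (SE 0.38, interval −0.26 to 1.46) and Egr2 the next at 0.52 (−0.76 to 1.80). With the neocortex score as a covariate these were 0.01 for Nr4a2 and −0.27 for Egr2, and 9 of the 10 log2 changes were below 0 (median −0.30). For Fos the group means were 17.9 ± 11.9 CPM in KO CT10 and 18.9 ± 4.3 CPM in WT CT10 (SD, n = 3 each), a log2 change of −0.07 with an interval of −1.10 to 0.95. The sign of the median depended on single libraries: it was 0.25 without KO CT10 replicate 1, 0.04 without KO CT10 replicate 2 and −0.31 without KO CT10 replicate 3, which the clock score placed with CT22. It was 0.02 without WT CT10 replicate 2 and 0.03 without WT CT10 replicate 3. Without both KO libraries of unfitting clock score the median was −0.31, with 2 genes above 0 and 8 below. Unadjusted p under 0.05 was then reached by 2 of 10 and by 3.05% of all genes in edgeR, and 0 of 10 were called. KO CT10 replicate 3 was highest of its group for 9 of the 10 genes, so leaving it out lowers KO by itself.

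At CT22 Nr4a3 was the 1 gene of 10 whose groups did not overlap, against 13.7% of all genes, a share at which 1 of 10 is no result about these genes. It averaged 37.0 ± 1.78 CPM in KO and 27.6 ± 4.08 CPM in WT (SD, n = 3 each), a log2 change of 0.43 (SE 0.17, interval 0.06 to 0.80), higher in 3 of 3 KO libraries. Its unadjusted p of 0.0262, in edgeR, was also the only one under 0.05 among the 10, where 10.9% of all genes had one, and its adjusted p was 0.422. Over all genes 0.0142% were called, and 0 of the 10 genes were. DESeq2 called 0 of the 10 and 0.364% of its genes. The log2 change was above 0 in 8 genes (50.6% of all genes) and below 0 in 2 (median 0.21, range −0.46 to 0.64, all genes 0.00). Fosb had the largest at 0.64 (SE 0.48, interval −0.43 to 1.71), from 12.3 ± 5.68 CPM in KO and 7.57 ± 2.59 CPM in WT. Npas4 had the lowest at −0.46 (SE 0.30, interval −1.11 to 0.18), and without WT CT22 replicate 1 it was −0.15. The median was 0.02 without KO CT22 replicate 2, the shallowest library, and 0.39 without KO CT22 replicate 1, which the clock score placed with CT10. It was 0.11 without KO CT22 replicate 3 and also 0.11 without WT CT22 replicate 2. With the neocortex score as a covariate it was 0.04, with 6 of 10 above 0, and Nr4a3 stood at 0.38, Fosb at 0.36 and Nr4a2 at 0.03. Without both KO libraries of unfitting clock score the median was 0.39, with 9 genes above 0 and 1 below. Unadjusted p under 0.05 was then reached by 3 of 10 and by 8.5% of all genes in edgeR, and 0 of 10 were called. KO CT22 replicate 1 was lowest of its group for 9 of the 10 genes, so leaving it out raises KO by itself. With all libraries, the 12 dentate granule markers all had a log2 change above 0 in this comparison. Their sum was 1252 CPM in KO CT22 replicate 1. It was 759 and 608 CPM in KO CT22 replicates 2 and 3, within the WT CT22 range of 554 to 792 CPM. All 8 striatum markers tested were also above 0 (median 0.53), with sums of 193 to 317 CPM in KO CT22 and 157 to 183 CPM in WT CT22. So were all 12 choroid plexus markers (median 1.37), all 7 thalamus and habenula markers tested (0.52) and 8 of 10 meningeal markers (0.86). The choroid plexus markers summed to 93.7 to 3845 CPM in KO CT22 and to 174 to 1592 CPM in WT CT22. With a choroid plexus score as a covariate the median of the 10 genes was 0.21. All 10 oligodendrocyte markers were below 0 (median −0.25). They summed to 3716 CPM in KO CT22 replicate 1, and to 6772 and 6685 CPM in replicates 2 and 3, within the WT CT22 range of 6119 to 7732 CPM. The part of these tissues in the values of the 10 genes was not tested further. In bulk tissue fewer cells of a type and less RNA per cell cannot be told apart.

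**Figure D2:**
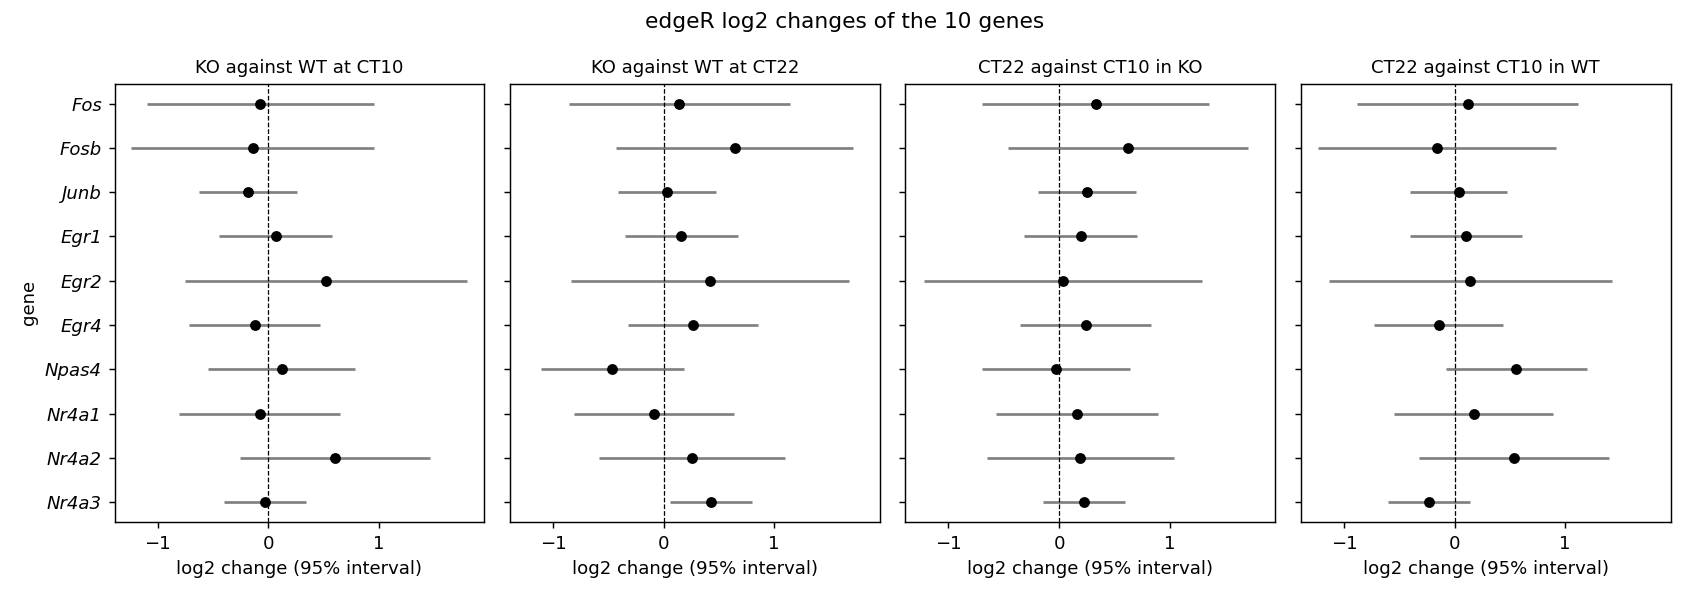
edgeR log2 change (x axis) of each of the 10 genes (rows) in 4 comparisons, as a point with its 95% interval; positive values are higher in KO in the 2 left panels and higher at CT22 in the 2 right panels. The interval of Nr4a3 for KO against WT at CT22, 0.06 to 0.80, is the one that leaves out 0, and no adjusted p passed the threshold.

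The CT22 libraries were next compared with the CT10 libraries within each genotype. In KO 9 of 10 genes had a log2 change above 0 (median 0.21, range −0.03 to 0.62), while 50.1% of all genes did. None was called among the 10, or among all 14131 genes (0%), and the unadjusted count under 0.05 was 0 of 10 against 3.16% of all genes (edgeR; DESeq2 also called 0 of 10). In WT 7 of 10 were above 0, as were 50% of all genes (median 0.11, range −0.23 to 0.56). There again 0 of 10 and 0% of all genes were called, with 0 of 10 and 6.76% under an unadjusted p of 0.05 in edgeR. DESeq2 called 0 of the 10 in WT too (0.0219% of its genes). Without adjustment 1 of 10 had p under 0.05 in DESeq2, against 4.55% of all genes. Npas4 had the largest change in WT, 19.4 ± 6.76 CPM at CT22 against 13 ± 3.67 CPM at CT10 (SD, n = 3 each; edgeR log2 change 0.56, SE 0.29, adjusted p = 0.729). Nr4a2 had the next, 56.5 ± 21.9 CPM at CT22 against 38.8 ± 6.99 CPM at CT10 (0.54, SE 0.38). Of the 11 neocortex markers 10 were also higher at CT22 in WT (median log2 change 0.37). With the neocortex score as a covariate 8 of the 10 genes were below 0 in WT (median −0.18), with Npas4 at 0.36 and Nr4a2 at 0.04, whereas in KO 8 were above 0 (median 0.18). Leaving out WT CT10 replicate 1 gave a WT median of −0.06, leaving out WT CT22 replicate 1 gave −0.02 and leaving out WT CT22 replicate 3 gave 0.05. The groups overlapped for all 10 genes in both genotypes, while they did not for 7.96% of all genes in KO and 16.2% in WT.

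The KO comparison between CT labels changed with the libraries kept. The median was −0.02, with 4 of 10 above 0, without KO CT10 replicate 1 and 0.04 without KO CT22 replicate 2. It was 0.57 without KO CT10 replicate 3 and 0.41 without KO CT22 replicate 1, the 2 libraries that the clock genes placed with the other label. KO CT10 replicate 3 was highest of its group for 9 of the 10 genes and KO CT22 replicate 1 lowest for 9. Leaving them out thus raises CT22 over CT10 by itself, and the values that follow are a description. Without both, which left 2 libraries in each KO group, all 10 genes had a log2 change above 0 and the median was 0.79. Fosb then stood at 18.2 and 12 CPM in KO CT22 against 3.51 and 5.6 CPM in KO CT10, a log2 change of 1.72 (SE 0.35, edgeR adjusted p = 0.456). Fos stood at 27.3 and 24.8 CPM against 6.12 and 17.7 CPM (log2 change 1.16, SE 0.42), Nr4a1 at 112 and 76.1 CPM against 45.9 and 60.6 CPM (0.81, SE 0.21) and Egr1 at 222 and 163 CPM against 107 and 138 CPM (0.65, SE 0.16). An unadjusted p under 0.05 was reached by 9 of 10 genes, Npas4 being the exception at a log2 change of 0.06, where 7.37% of all 14228 genes tested reached it. After adjustment 0 of the 10 passed, and 0.00703% of all genes did. The 4 KO libraries left also differed in neocortex markers, which summed to 201 and 167 CPM in KO CT22 against 119 and 91.3 CPM in KO CT10, and the part of that tissue in these changes was not tested. In the same fit the WT values were near those with all libraries, with a median of 0.12 and 7 genes above 0. The labels alone assign these libraries, so both sets of values are given, and which one holds for the label is not settled by the files.

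Whether the effect of KO differed between CT22 and CT10 was tested as an interaction. The difference of the 2 log2 changes had a median of 0.15 over the 10 genes (range −0.59 to 0.78), 6 above 0 (49.9% of all genes) and 4 below, with 0 called among the 10 and 0% among all genes. An unadjusted p under 0.05 was reached by 0 of 10 and by 6.09% of all genes in edgeR, and DESeq2 called 0. Nr4a3 had a difference of 0.45 (SE 0.24, edgeR adjusted p = 0.737) and Npas4 one of −0.59 (SE 0.42, adjusted p = 0.746). With the same 2 libraries left out the median difference was 0.66, with 9 above 0. Unadjusted p under 0.05 was then reached by 5 of 10 and by 4.39% of all genes in edgeR, and 0 were called. That choice of libraries raises the difference by itself, as above. With all libraries and the neocortex score as a covariate the median difference was 0.33, also with 9 above 0. Leaving out 1 library at a time, it ran from −0.18 without KO CT10 replicate 1 to 0.56 without KO CT10 replicate 3.

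The spread between replicates was wide for these genes. The SD of log2 CPM within groups had a median of 0.42 over the 10 genes, against 0.17 over all 14131 genes tested. It ran from 0.26 for Nr4a3 to 0.83 for Egr2. Against genes of like level, within 1.5-fold in mean CPM, 9 of the 10 had a larger SD than 90% of them. Nr4a2 exceeded 99.3% of 2897 such genes, Fos 99.1% of 2767 and Nr4a1 98.9% of 2517, and Nr4a3 was lowest at 89.7% of 3024. No test was made of these positions, since genes of 1 library are not independent.

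**Figure D3:**
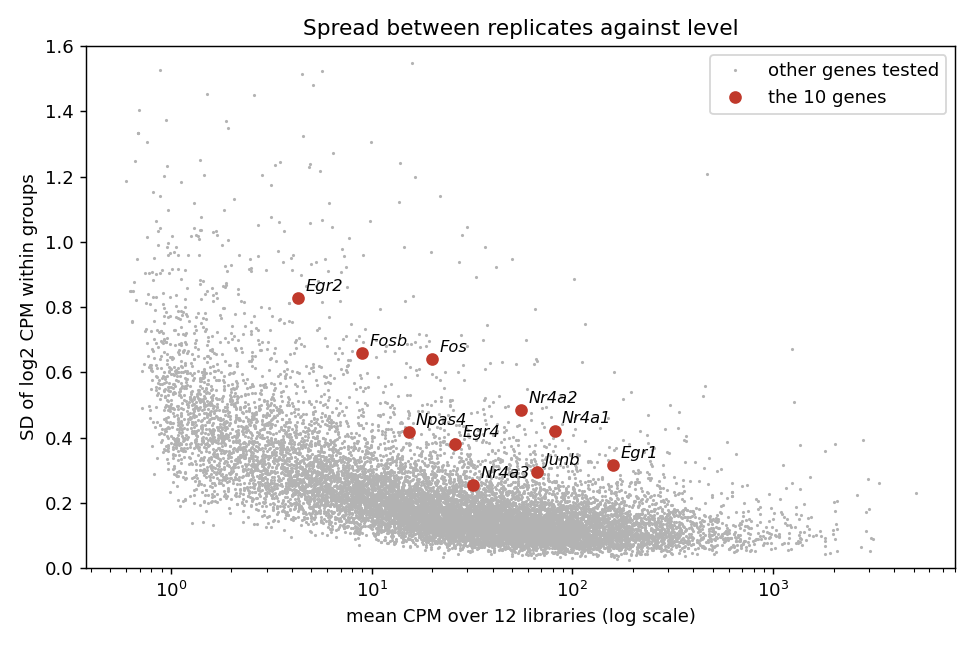
SD of log2 CPM within groups (y axis) against mean CPM over the 12 libraries (x axis, log scale) for all genes tested (grey) and the 10 genes (red). The 10 genes lie in the upper part of the cloud, from Egr2 at 4.31 CPM to Egr1 at 160 CPM, with Nr4a3 nearest to the bulk.

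The spread was wider within the KO groups than within the WT groups for 9 of 10 genes, the exception being Npas4 (0.41 in KO and 0.42 in WT). A larger SD in KO was found for 63% of all genes as well. The median SD of log2 CPM over the 10 genes was 0.50 in KO and 0.29 in WT, against 0.18 in KO and 0.15 in WT over all genes. Egr1 had 0.43 in KO and 0.12 in WT, Fos 0.85 in KO and 0.31 in WT, and Nr4a1 0.56 in KO and 0.19 in WT. The KO groups also hold the shallowest library and the 2 libraries that the clock genes placed with the other label, and their part in this spread was not tested.

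Within a group the same library was often low or high for most of the genes. KO CT10 replicate 1 had the lowest value of all 12 libraries for 8 of the 10 genes, with Nr4a2 and Nr4a3 as the exceptions, and a mean centred level of −0.75 on the log2 scale. KO CT10 replicate 3 was highest of the 12 for 5 genes (mean 0.52), and KO CT22 replicate 2 for 4 genes (mean 0.55). KO CT22 replicate 2 was among the 3 highest libraries for 9 genes. Within WT CT10, replicate 1 lay below the group mean for all 10 genes, and within KO CT22 replicate 1 did. The percentage of all genes below the group mean in a library was between 46.2 and 51.8.

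**Figure D4:**
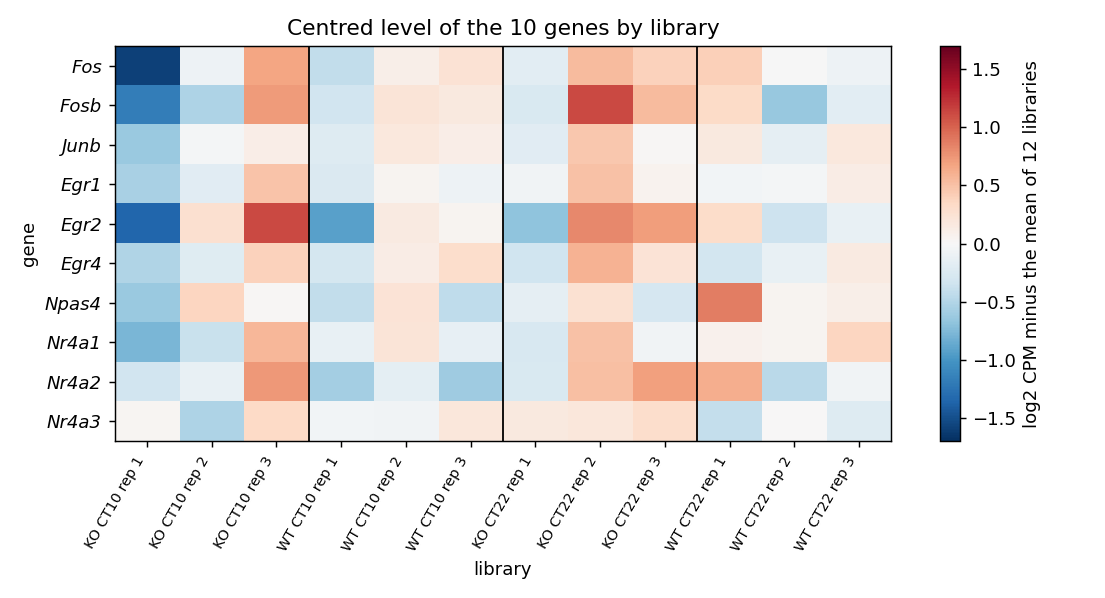
Log2 CPM of each of the 10 genes (rows) in each library (columns) minus that gene's mean over the 12 libraries, blue below and red above. KO CT10 replicate 1 is blue throughout except for Nr4a3, and KO CT10 replicate 3 and KO CT22 replicate 2 are mostly red.

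Over the 12 libraries the 45 pairs of the 10 genes had a median Pearson r of 0.72 for log2 CPM, 44 of them above 0, while the median over all pairs of genes was −0.001. After removal of the group means the median r was 0.73. The points of these correlations share library, depth and dissection, and they are given as a description. Egr1 and Nr4a1 were most alike (r = 0.93), then Fos and Egr2 (0.89) and Fos and Junb (0.87). Against the mean of the other 9 genes r was 0.92 for Egr1, Fosb and Egr2, 0.90 for Fos, 0.88 for Junb, 0.84 for Nr4a1, 0.80 for Egr4 and 0.70 for Nr4a2. Spearman's rho was 0.86, 0.93, 0.88, 0.92, 0.77, 0.75, 0.78 and 0.71 for the same genes in that order. Npas4 (r = 0.44, rho 0.43) and Nr4a3 (r = 0.20, rho 0.29) stood apart, and the pair of them was the 1 pair below 0, at r = −0.59. The 2 libraries in which the mean of the other 9 genes lay farthest from its median were then left out, separately for each gene. Without them r was 0.13 for Npas4, 0.62 for Egr4 and 0.21 for Nr4a3, and between 0.64 and 0.92 for the other 7.

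**Figure D5:**
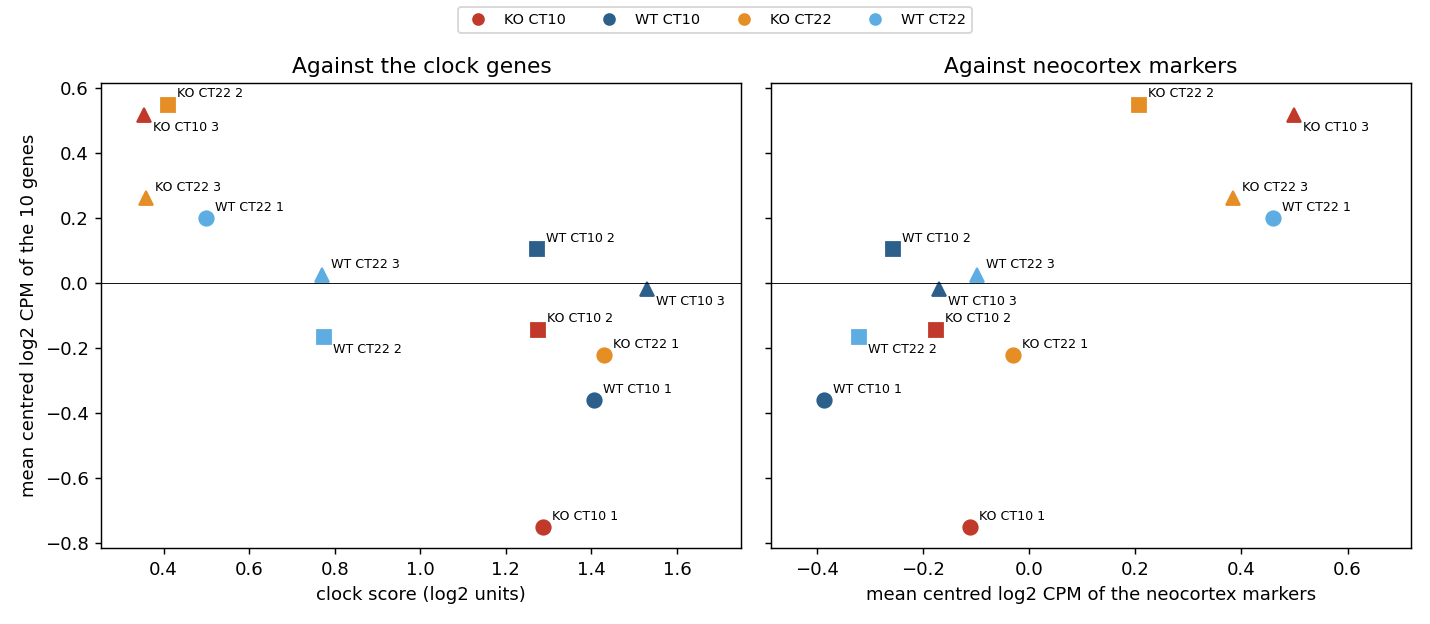
Mean centred log2 CPM of the 10 genes (y axis) in each library against its clock score (left, log2 units) and against the mean centred log2 CPM of the neocortex markers (right), with the 4 groups by colour. The 4 libraries highest in the 10 genes, KO CT22 replicates 2 and 3, KO CT10 replicate 3 and WT CT22 replicate 1, are the 4 with the lowest clock scores and the 4 with the highest neocortex values, and KO CT10 replicate 1 is lowest in the 10 genes.

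Library level moved with tissue markers and with the clock genes. The 4 libraries highest in the 10 genes (mean centred log2 0.20 to 0.55) had clock scores of 0.35 to 0.50, against 0.77 to 1.53 in the other 8. The same 4 had centred neocortex values of 0.21 to 0.50, against −0.39 to −0.03 in the other 8. Across the libraries the neocortex markers of at least 2 CPM had a median r of 0.54 with the mean of the 10 genes (4 of 7 above 0.5). Their r ran from 0.30 for Scnn1a to 0.70 for Ddit4l. The 9 daytime clock genes had a median r of −0.57, but they were split, from −0.79 for Dbp to 0.42 for Per1. Among them Tef, Bhlhe41 and Per2 had −0.03, −0.07 and −0.20. The median was −0.25 for the dentate granule markers and −0.25 for the astrocyte markers. The choroid plexus markers had −0.03. Fits with and without the neocortex score, and with and without the 2 KO libraries of unfitting clock score, are given above. No fit held the clock score as a covariate. The part of tissue or clock in the level of the 10 genes across libraries was not tested further.

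The genes outside the list whose levels followed the mean of the 10 most closely were then taken, among 13065 genes of at least 2 CPM. Cbln1, a secreted synapse organiser, led with r = 0.90 (rho 0.88; 1.66 to 11.9 CPM), and Dusp1, an early phosphatase of MAP kinases, was next with r = 0.89 (rho 0.83; 12.1 to 29.7 CPM). Uevld, Rbm15b, Rps6kc1, Rgag4, Fsd1, Macrod2, Prr16 and Thap1 had r from 0.86 to 0.84. An r above 0.5 was found for 1054 genes, 8.07% of those compared. It was found for 7 of 15 other activity-induced transcription factor genes, led by the AP-1 gene Fosl2 (r = 0.79), Srf (0.78) and Ier5 (0.70). Of the effector genes 4 of 27 had such an r: Dusp1, Arc (0.77), a synaptic protein that is itself an immediate early gene product, the neuropeptide precursor Vgf (0.72) and the kinase gene Sik1 (0.64). The median r of the 27 effector genes was 0.23. The lowest values were those of Ptgs2 (−0.44), Arl4d (−0.31), Plk2 (−0.30) and Bdnf (−0.27). Dimer partners and corepressors had it in 3 of 10, Rxrb, Rxra and Jund, and upstream kinases, CREB, SRF cofactors and MEF2 genes in 0 of 21.

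Genes of the same pathway were tested in the same fits. Of 18 other activity-induced transcription factor genes 16 were tested, and 0 were called in any of the 6 comparisons; the same held for 29 effector genes, 21 upstream genes and 10 of 11 partner genes tested. For KO against WT over both CT labels the median log2 change was −0.03, −0.05, 0.08 and 0.01 in these 4 lists, beside 0.01 over all genes. Ier5, an early gene whose product acts with heat shock factor, had the smallest p of the first list: it averaged 48.4 ± 8.83 CPM in KO and 38.7 ± 6.3 CPM in WT (SD, n = 6 each; edgeR log2 change 0.33, adjusted p = 0.597). Klf2, a zinc finger factor also of endothelium, stood at 9.1 ± 0.542 CPM in KO CT10 and 15.1 ± 4.76 CPM in WT CT10 (SD, n = 3 each; edgeR log2 change −0.72, adjusted p = 1). Klf10 stood at 27.5 ± 1.03 CPM in KO CT10 and 36.5 ± 1.37 CPM in WT CT10 (log2 change −0.40).

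Of the effectors, Tiparp, a mono-ADP-ribosyltransferase, stood at 19.9 ± 4.21 CPM in KO CT10 and 28.4 ± 1.92 CPM in WT CT10 (SD, n = 3 each; edgeR log2 change −0.50, adjusted p = 1). At CT22 Arl5b, a small GTPase, stood at 16.0 ± 3.82 CPM in KO and at a mean of 10 ± 1.4 CPM in WT (edgeR log2 change 0.70, adjusted p = 0.377). Homer1, a postsynaptic scaffold with an activity-induced short form, averaged 76.9 ± 8.22 CPM in KO and 65.2 ± 8.89 CPM in WT over both labels (SD, n = 6 each; edgeR log2 change 0.24, adjusted p = 0.705). Arc, which showed a high r above, stood at 221 ± 88.5 CPM in KO and 257 ± 35.5 CPM in WT, with groups that overlapped.

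The upstream genes leaned one way at CT22, where 18 of 21 had a log2 change above 0 in KO (median 0.15; 50.6% of all genes) and 7 had an unadjusted p under 0.05 (10.9% of all genes), 0 being called by edgeR after adjustment. Camk4, a calcium-dependent kinase that phosphorylates CREB, had 148 ± 11.6 CPM in KO CT22 and 108 ± 9.84 CPM in WT CT22 (SD, n = 3 each; edgeR log2 change 0.45, SE 0.10, adjusted p = 0.353). Mef2c, a MEF2 factor, had 132 ± 18.3 CPM in KO CT22 and 99.1 ± 4.11 CPM in WT CT22 (edgeR log2 change 0.42, adjusted p = 0.377). At CT10 the same 21 genes had 6 log2 changes above 0 and 0 unadjusted p under 0.05, and 19 of the 21 had a difference of the KO effect above 0 (median 0.20). From CT10 to CT22, 17 of the 21 were lower and 4 higher in WT (median −0.11). In KO 15 were higher and 6 lower (median 0.11). The 12 dentate granule markers had medians of 0.33 at CT22 and −0.08 at CT10 for KO against WT. Their sum exceeded the WT CT22 range only in KO CT22 replicate 1, and their part in the values of the upstream genes was not tested.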

How the data were processed

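Polyadenylated RNA of 12 hippocampal libraries was measured, and groups and replicate numbers came from the sample titles. The submitters' processing notes name RSEM 1.2.5, TopHat 1.3.3, FastQC and edgeR 3.0.6, and the build mm10. The deposited library files hold estimated counts and TPM per transcript, per the file headers. A table of KO over WT deposited by the authors lists, for every gene, the p-value, its adjusted form and the log2 ratio. Its 12 deposited signal columns, each matched to a library (0 unmatched), are that library's counts times a single factor to within 1% for at least 99.27% of the genes compared, and were not used for tests. No source used here states the strand setting of the counting, so sense and antisense reads of overlapping genes cannot be told apart.

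Estimated counts were summed per gene and rounded. In R 4.3.3 with edgeR 4.0.16, filterByExpr (minimum count 10) left 14131 genes, which were scaled by TMM and fitted with 4 group means by the robust quasi-likelihood method, with 8 residual degrees of freedom and Benjamini-Hochberg adjustment at 0.05. DESeq2 1.42.0, DESeq2 size factors, no filter, a replicate block, fits of the compared groups alone, marker scores as covariates and libraries left out were the alternatives. Replicate pairs differed beyond counting noise in every group, so none was merged. Log2 CPM used a prior count of 2. Totals of 4435606 to 10911046 counts put 3 counts at 0.676 to 0.275 CPM, and these limits cover counting error only.

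The 10 genes and all other lists were chosen with earlier results of these data known. All 10 genes are reported. From each pathway list the 3 genes with the smallest unadjusted p in a comparison could be named, as could the 10 genes most alike in pattern by Pearson correlation; Arc, Fosl2, Srf and the other genes given for their correlation inside a list were chosen after their values were seen. Same-numbered replicates did not vary together, so the numbers were not used to pair libraries.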

Additional observations from a re-analysis of the deposited data

Results flagged for a closer look

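Among 20 sets of 6 libraries (10 genes in KO and in WT), 1 held a library set apart from the others. Nr4a2 in WT was highest in CT22 replicate 1, at 80.8 CPM against 50.5 CPM in the next WT library. The gap to the nearest library was 0.655 of the whole range, above Dixon's limit at the 95% level. Chance marks about 1 in 20 such sets, so 1 of 20 is the number chance gives. That library was also the highest of all 12 in neocortex markers, at a summed 215 CPM. The log2 change of Nr4a2 for CT22 against CT10 in WT was 0.54 without and 0.04 with the neocortex score as a covariate.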

How the results depend on the processing

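The count of the 10 genes past the threshold was 0 in each of the 6 comparisons under every alternative run for it, which were DESeq2, DESeq2 size factors in edgeR, no filter on low counts, the replicate block, fits of the compared groups alone (run only where 2 groups were compared), neocortex and choroid plexus scores as covariates, leaving out the 2 KO libraries whose clock score sits with the other label, and leaving out each library in turn. No call could therefore be lost, and the signs that turned belong to changes inside their own error. Why these signs turned was not tested, and leaving libraries out shows only that a value depends on them. With the neocortex score the log2 changes of KO over WT that turned sign were over both labels Fos −0.35, Fosb −0.29, Egr1 −0.058, Egr2 −0.093, Egr4 −0.10, at CT10 Egr1 −0.16, Egr2 −0.27, Npas4 −0.086, at CT22 Fos −0.086, Junb −0.059. Without those 2 KO libraries they were over both labels Fos −0.18, Egr1 −0.0057, at CT10 Egr1 −0.28, Egr2 −0.23, at CT22 Nr4a1 0.062; the median of CT22 against CT10 in KO moved to 0.79 and that of the difference of the KO effect to 0.66. With libraries left out in turn the medians of the 10 genes ran from −0.11 to 0.20 for KO against WT over both labels, −0.31 to 0.25 at CT10, 0.02 to 0.39 at CT22, −0.02 to 0.57 for CT22 against CT10 in KO, −0.06 to 0.18 in WT and −0.18 to 0.56 for the difference, the last being the value without KO CT10 replicate 3. Single genes whose sign turned in these runs were, as log2 changes of KO over WT over both labels, Egr1 −0.057 to 0.22, Egr4 −0.082 to 0.18, Fos −0.28 to 0.24, Fosb −0.14 to 0.43, Junb −0.18 to 0.019, Nr4a1 −0.33 to 0.044. Those at CT10 were Egr1 −0.28 to 0.28, Egr2 −0.22 to 0.99, Egr4 −0.43 to 0.072, Fos −0.70 to 0.36, Fosb −0.91 to 0.22, Junb −0.34 to 0.015, Npas4 −0.12 to 0.39, Nr4a1 −0.57 to 0.18, Nr4a3 −0.24 to 0.17, and those at CT22 were Egr1 −0.028 to 0.26, Junb −0.17 to 0.16, Nr4a1 −0.34 to 0.059.

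With the replicate number as a block the medians were 0.08 over both labels, −0.09 at CT10, 0.19 at CT22, 0.23 and 0.14 for CT22 against CT10 in KO and in WT, and 0.16 for the difference, with 0 of the 10 called; Fos over both labels turned to −0.034. Same-numbered libraries of different groups correlated at r = −0.24 to 0.33, above 0.1 in 4 of 18 pairs, and 0 libraries correlated best with their own number. Depth limits Egr2 and Fosb most, with as few as 12 and 31 counts.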
